A study of Mus musculus with 8 samples.

Results

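The Peg3 domain on mouse chromosome 7 was defined by position, as every listed peak from 10 kb below Peg3 to 10 kb beyond Usp29, a window of 283329 bp (mm10). It holds Peg3, its antisense transcript Peg3os and the neighbouring gene Usp29. It held 36 of the 581 peaks in 4 lists made by chromatin immunoprecipitation with sequencing (ChIP-seq). They were 14 of 152 peaks with a PEG3 antibody in wild-type cells, 20 of 163 with the same antibody in Peg3 knockout cells, 2 of 173 with an H3K9me3 antibody in wild-type cells and 0 of 93 with that antibody in knockout cells. The cells were mouse embryonic fibroblasts, primary connective-tissue cells, of strain C57BL/6 from embryos of 14.5 days post coitum. The 2 genotypes were wild type and Peg3 knockout, and each genotype gave 1 library per antibody and 1 sequenced input, the unenriched chromatin that serves as background. The inputs appear as 4 of the 8 samples, since the labels list the same raw input for both antibodies. The kind of knockout allele, whether embryos were pooled and the part of PEG3 that the antibody binds are not given in the sources used here. Peak tables hold no expression, so neither the fibroblast label nor the loss of PEG3 could be checked with them.

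Peg3 (paternally expressed gene 3) is an imprinted gene, transcribed from the paternal allele and silenced on the maternal one, and it encodes a large nuclear protein with many C2H2 zinc fingers that binds DNA. Most of that protein is encoded by a long last exon. Peg3 and Usp29, which encodes a ubiquitin-specific protease and is also paternally expressed, are transcribed in opposite directions from a shared CpG-rich promoter region. The imprinting control region of the domain lies there and carries DNA methylation on the maternal allele. H3K9me3, histone H3 trimethylated at lysine 9, marks silent chromatin and the methylated allele of many imprinting control regions.

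In the RefSeq annotation of build GRCm38.p6, Peg3 lies from 6703892 to 6730462 on chromosome 7 and is read from the minus strand, so its 3′ end is at the low coordinates. Usp29 lies from 6730559 to 6967220 and is read from the plus strand. Peg3os, an antisense RNA, lies from 6706760 to 6707624, within the 3′ part of Peg3. The transcription starts used here are 6730419 for Peg3 and 6730583 for Usp29, 164 bp apart. Exon positions and the borders of the imprinting control region were not used here. The peaks are therefore placed by their distance from these starts and gene ends, and the long last exon is represented only by the 3′ part of the gene.

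The sequences of 2 windows at the shared promoter are shown because the control region of the domain lies there and no listed peak reached these windows. The borders of that region were not used, so whether listed peaks lie in other parts of it is not known here. Each window runs from 250 bases before a start to 50 bases from the start on, from RefSeq, GRCm38.p6. The windows are chr7:6730370-6730669 on the minus strand for Peg3 and chr7:6730333-6730632 on the plus strand for Usp29. Capitals mark CpG dinucleotides, the bases that imprint methylation acts on, and the octamer TGACGTCA of the cAMP response element.
Peg3: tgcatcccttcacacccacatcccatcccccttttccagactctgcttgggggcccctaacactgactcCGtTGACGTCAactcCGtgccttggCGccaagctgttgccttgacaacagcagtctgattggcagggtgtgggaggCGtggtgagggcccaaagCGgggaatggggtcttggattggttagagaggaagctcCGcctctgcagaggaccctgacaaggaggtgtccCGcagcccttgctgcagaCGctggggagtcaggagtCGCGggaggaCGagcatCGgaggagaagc
Usp29: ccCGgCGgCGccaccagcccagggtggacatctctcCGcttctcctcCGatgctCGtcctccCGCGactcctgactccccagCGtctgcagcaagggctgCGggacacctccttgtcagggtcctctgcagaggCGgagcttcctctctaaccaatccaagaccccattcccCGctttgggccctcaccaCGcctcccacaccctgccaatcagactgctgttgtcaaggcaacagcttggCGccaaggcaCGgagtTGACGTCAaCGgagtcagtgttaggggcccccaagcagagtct
The windows share 263 bp, read on opposite strands, and together span 337 bp. The Peg3 window held 13 CpG dinucleotides and the Usp29 window 17, against a median of 7 over 32851 promoter windows of the same length. At least as many as in the Peg3 window were found in 37.9% of all windows, and at least as many as in the Usp29 window in 31.4%. On both strands, AANATGGCG, a core of the motif of YY1, a zinc finger protein that binds the Peg3 control region, had 0 matches in either window and at least 1 match in 2.38% of all windows. The longer PEG3 motif recalled from earlier work also had 0 matches, and 0.484% of all windows held it. Sequence beyond the windows was not searched, so these counts do not describe the whole control region. The palindrome TGACGTCA, chosen after the sequence was seen, occurred once in the shared part and in 1.79% of all windows. It contains a CpG that is also counted above.

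The PEG3 antibody gave peaks at many places in Peg3 in both genotypes. Of the 14 wild-type peaks 13 overlapped Peg3 and 1 lay in Usp29, and of the 20 knockout peaks 19 overlapped Peg3 and 1 lay in Usp29. The peaks covered 6388 bp, or 24.0%, of Peg3 in wild type and 8574 bp, or 32.3%, in knockout. All peaks of the domain, of either antibody, fell in 25295 bp from 6707397 to 6732691. From there to the end of Usp29, 235006 bp beyond the last wild-type and 234529 bp beyond the last knockout peak, no peak was listed. Neither flank held a peak. Heights are given as the number of fragments over the summit for every 1000000 tags kept (FPM), with exact 95% Poisson intervals in brackets, and widths and folds as in the authors' lists. With 1 library per group, these intervals cover counting error only, and differences between wild type and knockout have no replicate check.

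**Figure D1:**
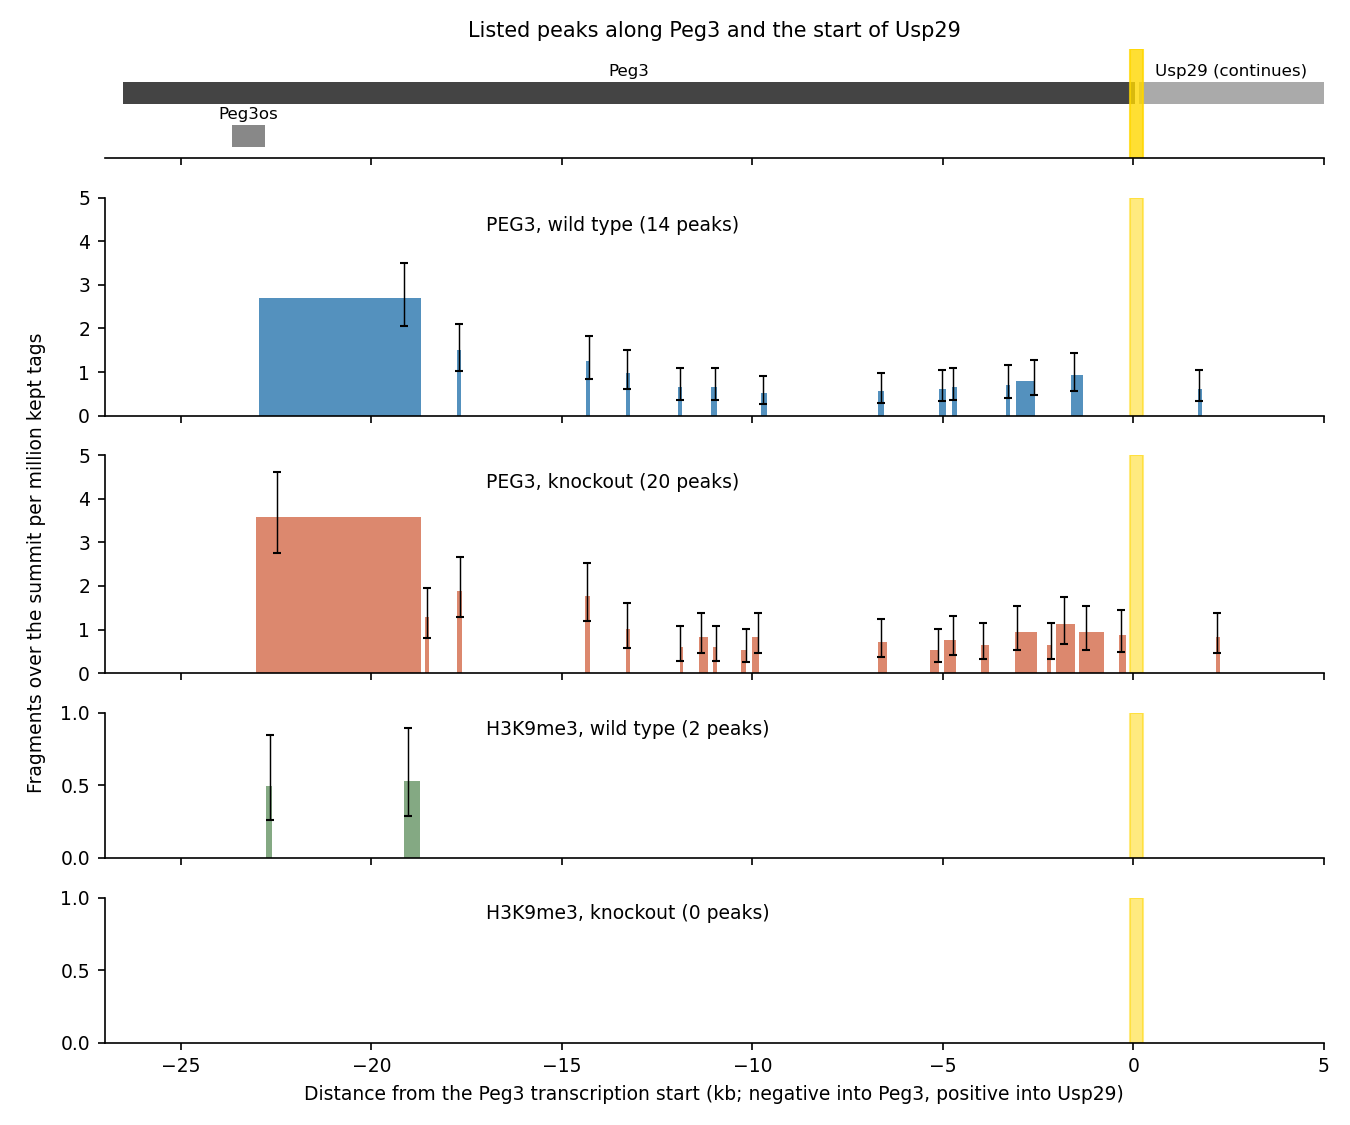
Listed peaks of the 4 ChIP libraries along Peg3 and the first part of Usp29. The horizontal axis is the distance from the Peg3 transcription start in kb, bars span each peak, and bar height is the number of fragments over the summit per 1000000 kept tags (the lists give no height elsewhere in a peak). Black lines are exact 95% Poisson intervals drawn at the summit, and the yellow band is the pair of promoter windows. The PEG3 panels hold 14 and 20 peaks, with the longest in the 3′ part of the gene. The wild-type H3K9me3 panel holds 2 and the knockout panel 0, and no bar reaches the yellow band.

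The longest peak lay in the 3′ part of Peg3 and did not reach the gene end at 6703892. Exon positions were not used, so its place against the last exon is not known here. In wild type the peak ran from 6707476 to 6711725, 4250 bp. It had 58 fragments at the summit, or 2.71 FPM (2.06 to 3.50), and a 26.9-fold enrichment. In knockout it ran from 6707397 to 6711735, 4339 bp, with 61 fragments, or 3.59 FPM (2.75 to 4.61), and a 32.6-fold enrichment. Its start differed by 79 bp and its end by 10 bp between the genotypes. The summits lay 3330 bp apart, however. The wild-type summit (6711270) was 455 bp from the end nearer the Peg3 start, and the knockout summit (6707940) was 543 bp from the opposite end. The heights of this pair therefore describe different places in the same long peak.

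Peg3os was touched by this long peak only. In wild type 149 of its 865 bp lay in the peak and in knockout 228 bp, at the end of Peg3os that faces the Peg3 start. The summits lay outside Peg3os in both genotypes, and no other peak of any list overlapped it.

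Toward the Peg3 start followed narrow peaks of about the length of 1 fragment, whose positions were close in both genotypes. The peak at 6712658 to 6712781 in wild type and 6712670 to 6712788 in knockout had 32 fragments in each library, or 1.50 FPM (1.02 to 2.11) and 1.88 FPM (1.29 to 2.66). The next, at 6716043 to 6716167 and 6716038 to 6716162, was 125 bp wide in both genotypes, with 27 fragments, 1.26 FPM (0.832 to 1.84), in wild type and 30 fragments, 1.77 FPM (1.19 to 2.52), in knockout. The following one, at 6717097 to 6717207 and 6717101 to 6717204, had 21 and 17 fragments, or 0.981 FPM (0.608 to 1.50) and 1.001 FPM (0.583 to 1.60). In these 3 pairs both edges agreed within 15 bp between the genotypes. Over all 61 PEG3 pairs of the lists, counting each knockout peak once, this was so for 3 of the 10 pairs in the domain (30%) and 11 of the 51 elsewhere (21.6%).

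In the middle of the gene the peaks were low. Wild type had 14 fragments at 6718470 and at 6719333, 11 at 6720659 and 12 at 6723728. Knockout had 10 fragments at 6718513 and at 6719392, 14 at 6719032 and at 6720417, 9 at 6720133 and 12 at 6723732. From 5 to 10 kb from the Peg3 start the wild-type summits reached 0.514 to 0.608 FPM and the knockout summits 0.530 to 0.824. The widest gaps between neighbouring peaks inside Peg3 lay at the same places in both genotypes. The longest measured 3261 bp (wild type) and 3249 bp (knockout), between the peaks at 6712658 and 6716043. The stretch before the peak at 6723728 measured 2928 bp (wild type) and 3145 bp (knockout).

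Over the first 5 kb of Peg3, next to the shared promoter, the listed peaks were more numerous and covered more in knockout. Wild type had 4 summits there and 1128 bp covered (22.6%), and knockout had 7 summits and 2598 bp covered (52.0%). The wild-type heights were 0.654, 0.701, 0.795 and 0.935 FPM, and the knockout heights ranged from 0.648 to 1.12 with a median of 0.883. At about 5 kb from the start, wild type had a peak of 13 fragments at 6725322 and knockout one of 9 at 6725083. The shared peak at 6725671 in wild type and 6725440 in knockout had 14 and 13 fragments. The widest peaks of the stretch measured 501 and 320 bp for wild type, against 652, 585 and 507 bp for knockout. In the other stretches of Peg3 the coverage differed less. It was 7.58% in wild type and 13% in knockout from 5 to 10 kb, 10.1% and 15.3% from 10 to 15 kb, and 37.9% and 39.6% from there to the 3′ end. In this order from the start, the median heights of the 4 stretches were 0.748, 0.561, 0.818 and 2.10 FPM in wild type. In knockout they were 0.883, 0.706, 0.706 and 1.88 FPM. Heights were thus greatest beyond 15 kb from the start in both genotypes, and the order of the other stretches differed between them.

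No PEG3 peak overlapped the promoter windows. The nearest wild-type peak on the Peg3 side (6728773 to 6729092, 20 fragments) ended 1241 bp before them, and the nearest knockout peak (6730035 to 6730222, 15 fragments, 0.883 FPM) ended 111 bp before them. On the Usp29 side the single wild-type peak (6732106 to 6732214) began 1523 bp inside the gene from its start, with 13 fragments, 0.608 FPM (0.324 to 1.04). The single knockout peak (6732593 to 6732691) began 2010 bp inside, with 14 fragments, 0.824 FPM (0.451 to 1.38). These Usp29 peaks did not overlap, with 378 bp between them, and their intervals overlapped widely. A window without a listed peak has no height in these tables, so signal at the promoter below the caller's threshold is not measured.

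Peg3 knockout cells thus had listed PEG3 antibody peaks over most of the domain's sites listed in wild type. In the domain 11 of 14 wild-type PEG3 peaks overlapped a knockout PEG3 peak by at least 1 bp, where 40.8% of the whole wild-type list did. In the other direction 12 of 20 knockout peaks overlapped a wild-type one, where 39.9% of the whole knockout list did. As shares these were 78.6% (exact Clopper-Pearson interval 49.2% to 95.3%) and 60.0% (36.1% to 80.9%), against 37.0% (28.9% to 45.6%) and 37.1% (29.1% to 45.5%) outside the domain. These intervals treat neighbouring peaks as independent. With an overlap of at least 50% of both peaks, 8 of 14 wild-type and 8 of 20 knockout peaks of the domain had a partner, where 26.3% and 24.5% of the whole lists did. With a gap of up to 1000 bp also counted, all 14 and all 20 did, where 47.4% and 49.7% of the whole lists did. The peaks of the domain lie close together, so a partner within that distance need not be the same site.

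The knockout over wild-type height ratios of the shared PEG3 peaks lay between 0.900 and 1.40, and most heights were greater in knockout. With each knockout peak counted once, 8 of 10 pairs were higher in knockout, where 42.6% of all 61 pairs were. A pair needs a listed peak in both genotypes. At the lowest background the height needed was 0.530 FPM in knockout and 0.421 FPM in wild type. Sites with a lower knockout height are thus left out, which can raise the ratios among low pairs. The size of this effect was not tested. No pair in the domain had a ratio interval wholly above 1, where 16.4% of all pairs did, and none had one wholly below 1, where 13.1% of all pairs did. The peaks of the 10 pairs had only 10 to 61 fragments, so their intervals are wide. Intervals that include 1 thus do not show equal heights. The 51 pairs elsewhere summed to 2383 wild-type and 1875 knockout fragments, more per pair, so these shares are not like for like. The ratios ran from 0.900 to 1.40 with a median of 1.19, and from 0.362 to 1.91 with a median of 0.914 outside the domain. The greatest ratio was 1.40 (exact conditional interval 0.804 to 2.45), at the peak at 6716043, and the lowest was 0.900 (0.358 to 2.18), at both 6718470 and 6719333. The fragments of the 10 pairs summed to 229 in wild type and 220 in knockout. Per kept tag, knockout over wild type was 1.21 (1.001 to 1.46). Without the longest pair, whose summits lie far apart, the ratio was 1.17 (0.938 to 1.46), an interval that includes 1. The wild-type and knockout heights kept nearly the same order over the 10 sites (Spearman's rho 0.929, given as a description, since the sites share both libraries).

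**Figure D2:**
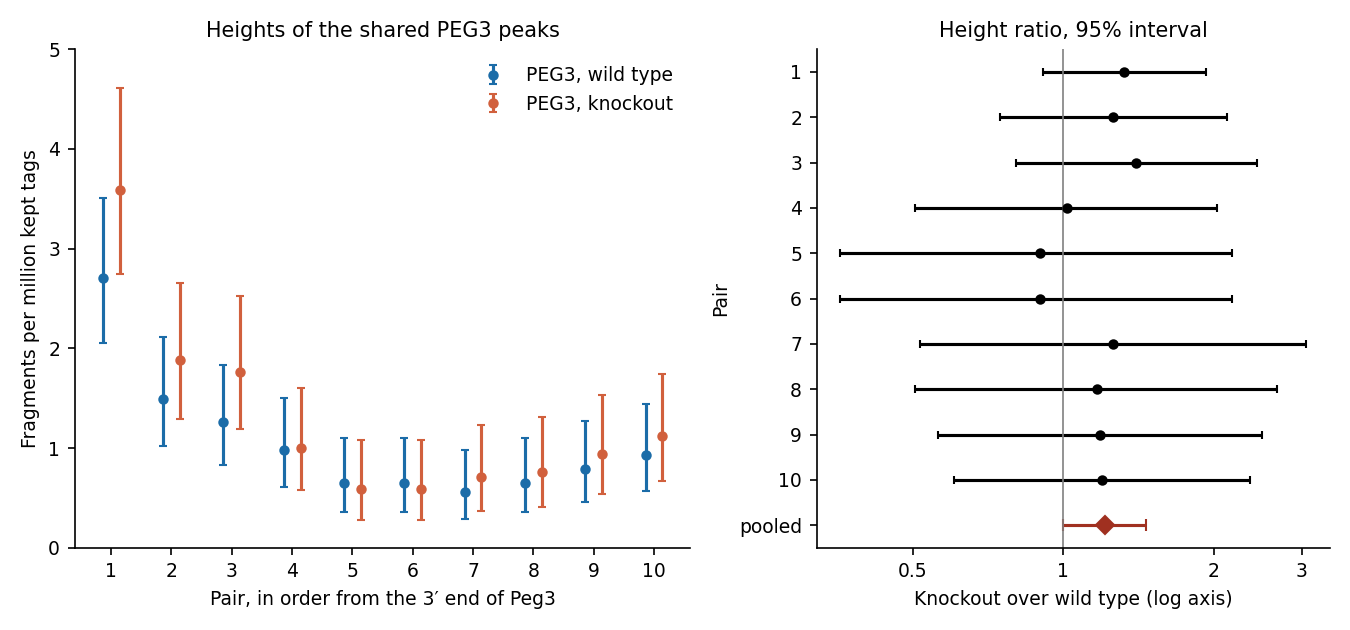
Heights of the 10 pairs of shared PEG3 peaks, ordered from the 3′ end of Peg3 (left, fragments over the summit per 1000000 kept tags with exact 95% Poisson intervals), and the knockout over wild-type ratio of each pair with its exact conditional 95% interval (right, log axis). Heights fall from pair 1 to the middle of the gene and rise again toward its start in both genotypes, every single interval includes 1, and the red diamond is the pooled ratio of 1.21.

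The peaks listed in a single genotype were low, apart from 1. Wild type alone had 3, at 6720659, 6727068 and 6732106, with 11, 15 and 13 fragments. Knockout alone had 8, with 9 to 22 fragments and 0.530 to 1.30 FPM. The highest of these lay at 6711842 to 6711946, 116 bp beyond the end of the long wild-type peak, with 22 fragments, 1.30 FPM (0.812 to 1.96), and a 12.1-fold enrichment. The others lay at 6719032, 6720133, 6720417, 6726418, 6728163 and 6730035 in Peg3 and at 6732593 in Usp29. These 11 peaks lay among other peaks, 72 to 942 bp from the nearest one of the other genotype. Outside the domain 7 of 87 wild-type and 8 of 90 knockout peaks of a single genotype had one within 1000 bp. At the lowest background the caller uses, a summit needed 9 fragments to reach the weakest listed −log10 p in either PEG3 library. Carried to the other library at equal height in FPM, 2 of the 3 peaks listed in wild type and all 8 listed in knockout would have had that many. For knockout this was fixed in advance, since its lowest listed summit, 0.530 FPM, lies above the 0.421 FPM needed in wild type. The count of 8 therefore does not show whether signal is missing there in wild type. The background at the places of these 11 peaks in the other library is not listed. With the background of the nearest listed peak of the other genotype in its place, the number needed was 9 to 15 fragments, and the same counts, 2 of 3 and 8 of 8, would have reached it. The closest of the 8, at 6720133, would have had 11.3 fragments where 11 were needed.

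The background behind the fold differed between the genotypes near the Peg3 start. The caller takes the largest of several local input averages and a genome-wide floor as background. That floor was the value used at 6 of 14 wild-type and 12 of 20 knockout peaks, including the long peak and the narrow ones at 6712658 and 6716043 in both genotypes. At these summits the input was therefore not above the genome-wide mean in either genotype. The background was highest at the pair of wild-type peaks nearest the start, with 0.123 per 1000000 kept tags at 6727347 and 0.150 at 6728773. At their knockout partners it was 0.0529, the floor, and 0.0636. There the ratio of the folds was 1.81 and 1.93, whereas the ratio of the heights was 1.19 (0.561 to 2.50) and 1.20 (0.604 to 2.36). The knockout peaks closest to the start, at 6728999 and 6730035, had a background of 0.0756. The part of this background difference in the wider knockout coverage was not tested. Over the 10 pairs the median ratio of the folds was 1.20, and 6 pairs had the floor in both genotypes.

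**Figure D3:**
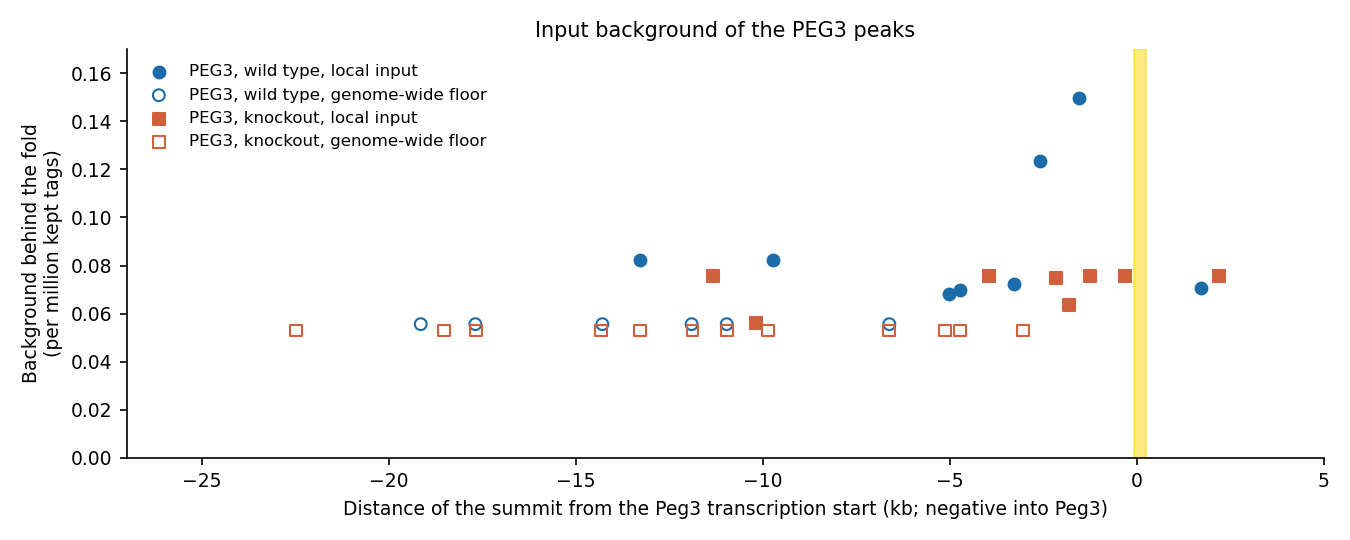
Background behind the authors' fold at each PEG3 peak of the domain (per 1000000 kept tags), against the distance of the summit from the Peg3 start in kb. Filled symbols are local input values and open symbols the genome-wide floor of the caller, and the yellow band is the pair of promoter windows. The wild-type values of 0.123 and 0.150 stand above all others, and the long peak and its nearest shared neighbours lie at the floor in both genotypes.

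H3K9me3 peaks were few and were listed in wild type only. Neither overlapped a knockout H3K9me3 peak, where 38.2% of the wild-type H3K9me3 list did. The first ran from 6707663 to 6707800 (138 bp), 39 bp beyond the end of Peg3os, with 13 fragments, 0.494 FPM (0.263 to 0.845), and a 5.76-fold enrichment. The second ran from 6711278 to 6711704 (427 bp), with 14 fragments, 0.532 FPM (0.291 to 0.893), and a 6.17-fold enrichment. Both lay in Peg3, and no H3K9me3 peak lay in Usp29, in Peg3os or within 18629 bp of the promoter windows. The knockout H3K9me3 library needed 12 fragments at the lowest background to reach its weakest listed −log10 p. At equal height in FPM the wild-type peaks would have had 13.5 and 14.5 there, just above that number. The lowest summit of the knockout H3K9me3 list had 14 fragments, between these values. In FPM the 12 fragments needed were 0.440, which lies inside the counting interval of both wild-type heights. The absence of these peaks from the knockout list therefore does not by itself show a lower H3K9me3 level.

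Both H3K9me3 peaks lay inside the long wild-type PEG3 peak, near its opposite ends. The first began 187 bp after its start and the second ended 21 bp before its end. The second H3K9me3 summit was 102 bp from the wild-type PEG3 summit, and the first was 190 bp from the knockout PEG3 summit. Of the wild-type H3K9me3 list 13.3% overlapped a wild-type PEG3 peak, and both peaks of the domain did. Of the wild-type PEG3 peaks 1 of 14 in the domain overlapped an H3K9me3 peak of its genotype, where 15.1% of the list did. In knockout 0 of 20 did, where 12.9% of the list did, which follows from the absence of knockout H3K9me3 peaks in the domain. The long PEG3 peak had 2.71 FPM at its summit and the H3K9me3 peaks in it 0.494 and 0.532. The background was at the floor at both H3K9me3 peaks. Heights of different antibodies are not on a common scale of occupancy, and an input value within the long peak is not listed separately.

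Within the PEG3 lists the domain held 9.21% of all wild-type peaks (interval 5.13% to 15%) and 12.3% of all knockout peaks (7.66% to 18.3%), with 15.1% and 21.5% of the covered bp. The long peak was the longest of either list. The next longest peak elsewhere measured 2295 bp (wild type) and 2354 bp (knockout). By the authors' fold the long peak ranked 1 in wild type and 3 in knockout. By fragments over the summit it ranked 15 and 69. Its rank was thus higher by enrichment than by height. Over all members the median width was 132.5 bp in the domain and 179 bp elsewhere in wild type, and 179 bp and 153 bp in knockout. The median fold was 6.15 in the domain and 5.78 elsewhere in wild type, and 7.19 and 4.16 in knockout. Outside the domain 47 of 143 knockout peaks had at least 80% of the highest pileup the duplicate filter allows, and in it 0 did. The domain was also a dense cluster. When peaks within 10 kb were joined, the 14 wild-type peaks formed the largest of 123 clusters, the next holding 3 peaks. The 20 knockout peaks formed the second largest of 91, after 27 peaks on chromosome 9, and the largest by covered bp.

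**Figure D4:**
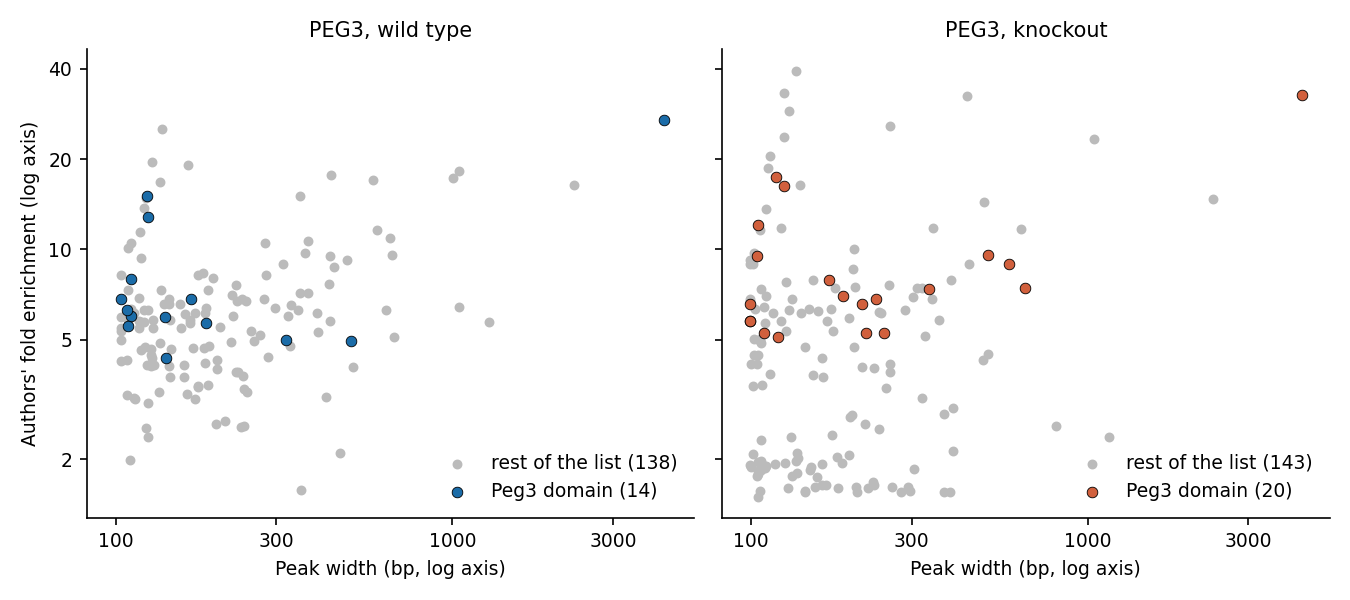
Width in bp and the authors' fold enrichment of every listed PEG3 peak (log axes) in wild type (left) and knockout (right), with the 14 and 20 peaks of the Peg3 domain coloured and the rest of each list in grey. The long peak stands at the right edge of both panels at 4250 and 4339 bp, and the remaining members lie among the other peaks.

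Peaks at other imprinted genes were counted, but the share over all annotated genes was not computed. The counts therefore do not show whether peaks are rarer there than at other genes. Of 49 further imprinted genes of a list that had a position in the annotation, 1 had a wild-type PEG3 peak in or within 10 kb, and none had a knockout PEG3 peak or an H3K9me3 peak of either genotype. That gene was H19, an imprinted noncoding RNA gene, with a peak 2199 bp outside it at 142580345 to 142580775 on chromosome 7 (27 fragments, 1.26 FPM, 7.69-fold). Zim1 and Zim3, imprinted genes that reach into the flanks of the domain, had no listed peak.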

How the data were processed

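The submitters' processing notes name Bowtie2, SAMtools and MACS2 as tools and mm10 as the genome build. Peaks had been called per library against the input of the same genotype with MACS2 2.2.6 (q below 0.05), keeping 1 tag per position, per the file headers. Kept ChIP tags numbered 21396407 in wild type and 16986250 in knockout for PEG3, with fragment lengths of 104 and 99 bp, and 26295696 and 27289192 for H3K9me3, with 97 and 98 bp. The deposited tables give the pileup signal at the summit, the fold (ratio of pileup to local background, 1 added to both) and −log10 p and q values. The columns of −log10 p and −log10 q had lost their header names and were identified from their values. Recomputing −log10 p from pileup and background differed by at most 0.00335.

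Fragments are the pileup divided by the caller's ChIP scale. Ratios are depth-normalised by kept tags and not corrected for fragment length. Gene positions and promoter windows are from RefSeq GRCm38.p6, with no exons. Promoters were found for Peg3 and Usp29. The exon positions named in the design were therefore not used. Overlaps and intervals were tested on simulated data. The domain, genes and lists were chosen with earlier results of these data known. Named genes are Peg3, Peg3os, Usp29 and listed imprinted genes with a peak in or within 10 kb. Zim1 and Zim3 are named for their position. Intervals and peak counts carry no test, since each group has 1 library. Analyses used SciPy 1.17.1, pandas 2.3.3, NumPy 2.4.6 and matplotlib 3.10.9 under Python 3.11.15.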

Additional observations from a re-analysis of the deposited data

How the results depend on the processing

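Of 30 alternative values for 12 results, 27 stayed within the reported interval (for counts and covered bp, within 1.5 times the reported value), 3 moved and 0 reversed. Several of the 27 could not have come out otherwise. The knockout H3K9me3 count of 0 cannot fall under stricter limits. Dropping the flanks cannot alter a count, because neither flank held a peak. A common minimum height for both libraries equals the lowest knockout PEG3 height, so all 20 knockout peaks had to pass it. At a −log10 q of at least 5, the PEG3 peaks of the domain fell to 9 in wild type (14 in knockout) and the wild-type H3K9me3 peaks to 0. With a gap of up to 1000 bp counted as shared, the shared knockout PEG3 peaks rose from 12 to 20. The pooled knockout over wild-type height ratio lay between 1.17 and 1.27 over its alternatives, but its interval included 1 without the longest pair (0.938 to 1.46), with a 50% reciprocal overlap (0.989 to 1.49) and with summits within 50 bp (0.906 to 1.50). The limit on summit distance, the background of the nearest listed peak and a common minimum height for both libraries (13 wild-type and 20 knockout PEG3 peaks) were chosen after seeing the data. No paired analysis was possible because each group has 1 library. Most summits had 9 to 32 fragments, which limits single height ratios to wide intervals.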
